A study of Mus musculus with 18 samples.

Results

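The 7 mature miRNAs mmu-miR-322-5p, mmu-miR-322-3p, mmu-miR-503-5p, mmu-miR-335-3p, mmu-miR-335-5p, mmu-miR-672-5p and mmu-miR-16-1-3p, written below without the species prefix, were followed across mouse brain libraries. They were chosen by name, as miRNAs reported elsewhere to turn over fast or to be open to degradation directed by a target RNA, or as the opposite strand of such a miRNA, and so serve as comparators for the effect of the long noncoding RNA Cyrano on miR-7. All 7 were found among the 1841 miRNAs listed, and all 7 passed the filter on low counts in every comparison. The study holds 18 small-RNA libraries, in 6 groups of 3 biological replicates, from male C57BL/6J mice aged 1 month. Cerebellum came from wild-type animals (WT), from Cyrano-/- animals (CyrKO), from mutants of the miR-671 site in the circular RNA Cdr1as (Cdr1as671), whose labels give a deletion of 18 nt, and from animals with both mutations (the double mutant). Hippocampus came from WT and CyrKO animals. The labels do not say how either allele was made. The input was 5 ug of total RNA from whole tissue, from which RNAs of 18 to 32 nt were taken, so fewer cells of a type and less of a miRNA per cell cannot be told apart.

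A miRNA sits in an Argonaute protein and finds its targets mainly through its seed, bases 2 to 8 from the 5′ end, and it is usually far more stable than the mRNAs it represses. In target-directed degradation the roles are turned around: a target that pairs with the seed and also extensively with the 3′ part of the miRNA leads to ubiquitination of Argonaute through the ligase adaptor ZSWIM8, and the miRNA is lost while the other strand of its hairpin is not. Cyrano is the best known such RNA for miR-7 in the brain. miR-503 and miR-322 belong to the wider miR-15/16 seed group and are known from muscle differentiation and from arrest of the cell cycle, where miR-503 is one of the short-lived members.

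The mature sequences are given 5′ to 3′, with the seed in capitals, because the seed decides which RNAs could recruit each miRNA. The miR-7 guides that Cyrano targets stand last for comparison.
miR-322-5p: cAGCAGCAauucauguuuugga
miR-322-3p: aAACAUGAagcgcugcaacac
miR-503-5p: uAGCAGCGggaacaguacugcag
miR-335-3p: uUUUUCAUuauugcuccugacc
miR-335-5p: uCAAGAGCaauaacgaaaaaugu
miR-672-5p: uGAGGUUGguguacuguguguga
miR-16-1-3p: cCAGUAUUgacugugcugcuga
miR-7a-5p: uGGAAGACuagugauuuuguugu
miR-7b-5p: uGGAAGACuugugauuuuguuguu

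All 9 were matched by name to RefSeq on GRCm38.p6. The seed of miR-322-5p, AGCAGCA, was shared by 10 of 1679 mature names in the table, miR-16-5p, miR-15a-5p and miR-15b-5p among them. That of miR-503-5p, AGCAGCG, was its own, although bases 2 to 7 were those of the same group. miR-672-5p shared its seed with miR-377-5p, and the seeds of miR-322-3p, both miR-335 strands and miR-16-1-3p were each held by 1 name. None of the 7 has the GGAAGAC of miR-7.

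Mir322 (chrX:53054255-53054349, minus strand) and Mir503 (chrX:53053984-53054054, minus strand) lie 200 bases apart. They overlap no GENCODE M21 gene apart from any with a name that starts with Mir, which were left out of the search. Mir335 (chr6:30741299-30741396, plus strand) lies within Mest, an imprinted gene expressed from the paternal allele, and Mir672 (chrX:104116175-104116274, minus strand) within Nexmif, a neuronal gene, in both cases outside any annotated exon of the host. Mir16-1 (chr14:61631880-61631972, minus strand) overlaps an exon of the noncoding host gene Dleu2. The hairpins whose strands are both members are shown with both mature strands in capitals, since the ratio of these strands is a readout that does not depend on scaling between libraries.
Mir322: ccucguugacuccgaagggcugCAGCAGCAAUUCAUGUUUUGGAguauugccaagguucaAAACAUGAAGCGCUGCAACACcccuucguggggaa
Mir335: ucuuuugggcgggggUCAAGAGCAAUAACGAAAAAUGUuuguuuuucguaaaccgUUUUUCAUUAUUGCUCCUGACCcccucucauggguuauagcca

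Libraries held 8591172 to 15305829 miRNA reads, so that 1 CPM (a count scaled to 1000000 miRNA reads) stood for 8.59 to 15.3 reads. RNA integrity numbers ran from 8.5 to 9.5. The summed level of the neuronal miRNAs listed (5 of 5, such as miR-124-3p and miR-9-5p) was 275222 to 387916 CPM in every library. Erythroid miRNAs, mainly miR-451a and miR-144, of which 3 of 4 were found, differed widely within groups. They summed to 783 and 603 CPM in Cdr1as671 libraries 1 and 2, against 16205 CPM in library 3 and 6326 to 32949 CPM in WT cerebellum. The 7 choroid plexus and ciliated-cell miRNAs ran from 3626 to 17016 CPM within hippocampus. Neither Cyrano nor Cdr1as is measured in small-RNA libraries; the level of miR-7 stands in as a check of the CyrKO labels.

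The members differed widely in abundance. miR-335-5p ranked 76 of 1841 by mean CPM, miR-322-5p 200, miR-672-5p 284, miR-335-3p 304, miR-322-3p 363, miR-503-5p 370 and miR-16-1-3p 442. Raw counts ran from 66 reads for miR-16-1-3p to 24558 for miR-335-5p, so counting error is appreciable only for the least abundant. For 6 of the 7 both hippocampal groups lay above all 4 cerebellar groups in CPM, without overlap. Of all miRNAs tested, 72% did not overlap between the WT tissues and 77.3% between the CyrKO tissues. The size of such tissue differences depends on the scaling, as described below. miR-16-1-3p overlapped between neighbouring groups throughout.

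miR-322-5p stood at 98.2, 81.3 and 127 CPM in WT cerebellum, at 108, 68.99 and 168 in CyrKO, at 66.1, 78.4 and 82.0 in Cdr1as671 and at 54.5, 108 and 144.2 in the double mutant. Hippocampus had 321, 285 and 350 CPM in WT and 232, 495 and 429 in CyrKO. Neighbouring cerebellar groups all overlapped, and replicates of 1 group lay far apart. Its coefficient of variation reached 44.1% in the double mutant, while that of miR-322-3p from the same hairpin stayed between 5.67% and 14.5%.

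miR-322-3p averaged 19.4 ± 1.90 CPM (SD, n = 3, as for all groups here) in WT cerebellum, 21.02 ± 3.05 in CyrKO, 17.0 ± 1.91 in Cdr1as671 and 15.9 ± 0.902 in the double mutant, and 38.1 ± 2.55 and 39.6 ± 3.81 in WT and CyrKO hippocampus. For miR-503-5p the libraries held 11.7, 13.8 and 12.8 CPM in WT cerebellum, 12.4, 11.6 and 12.6 in CyrKO, 7.96, 10.7 and 9.47 in Cdr1as671 and 9.68, 8.14 and 8.39 in the double mutant. In hippocampus it stood at 42.4, 48.9 and 34.8 CPM in WT and 50.1, 47.2 and 40.5 in CyrKO. The 2 cerebellar groups that carry the Cdr1as deletion were thus the lowest for miR-503-5p, and neither overlapped WT or CyrKO. Of all miRNAs tested, 25% did not overlap between Cdr1as671 and WT. The share was 26.6% between the double mutant and WT and 29.5% between the double mutant and CyrKO.

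miR-335-3p was read at 21.7, 25.5 and 22.6 CPM in WT cerebellum, 27.1, 26.3 and 26.97 in CyrKO, 27.7, 27.6 and 27.6 in Cdr1as671 and 30.2, 26.4 and 26.5 in the double mutant. WT lay below each mutant group by a small margin. Of all miRNAs tested, 8.08%, 25% and 26.6% did not overlap WT in CyrKO, Cdr1as671 and the double mutant. In hippocampus it was read at 95.9, 103 and 112 CPM in WT and 122, 114 and 94.6 in CyrKO. Its abundant partner miR-335-5p averaged 1067 ± 96.3 CPM in WT cerebellum, 1166 ± 69.7 in CyrKO, 845 ± 120 in Cdr1as671 and 1019 ± 105 in the double mutant, against 1892 ± 125 and 1847 ± 131 in WT and CyrKO hippocampus.

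miR-672-5p averaged 29.1 ± 2.68 CPM in WT cerebellum, 28.1 ± 1.75 in CyrKO, 33.7 ± 3.91 in Cdr1as671 and 31.5 ± 1.94 in the double mutant, and 136 ± 15.99 and 127 ± 11.8 in WT and CyrKO hippocampus. miR-16-1-3p, the rarely kept strand of the first miR-16 hairpin, lay between 7.67 and 11.8 CPM in all 18 libraries, and each group overlapped its neighbour in the order of means. Its lowest values, 7.96 and 7.67 CPM, came from Cdr1as671 libraries 1 and 2, in which erythroid miRNAs were also lowest, against 10.9 in library 3; the part of red-cell RNA in this was not tested.

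**Figure D1:**
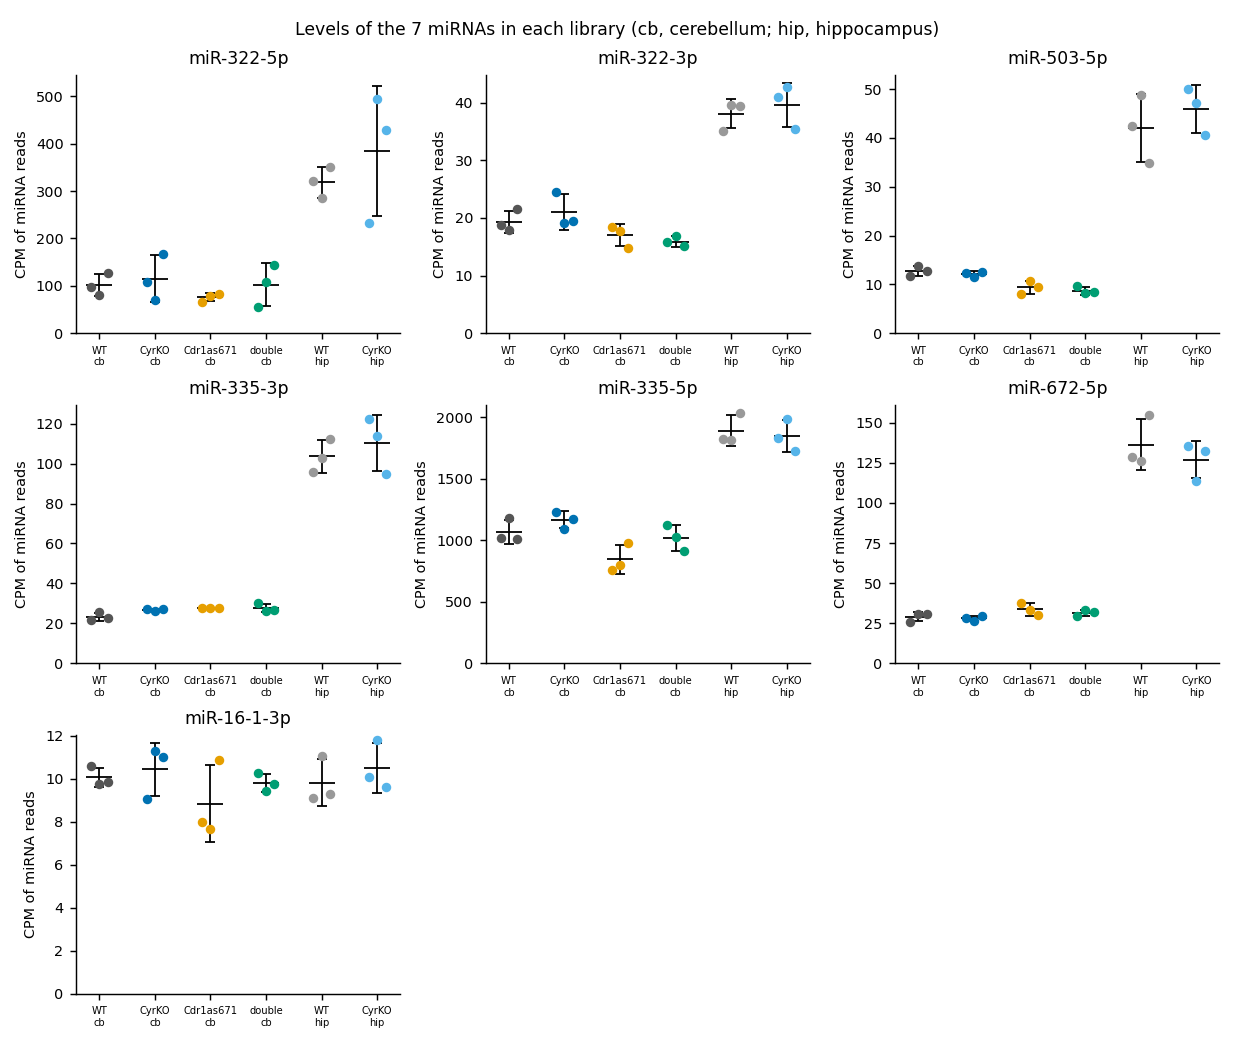
Level of each of the 7 miRNAs as CPM of miRNA reads (linear axis from 0), with 1 point per library and bars for the mean and SD of 3 libraries. For 6 miRNAs both hippocampal groups lie above all cerebellar groups, whereas miR-16-1-3p stays between 7.67 and 11.8 CPM, and the points of miR-322-5p are spread widely within groups.

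The comparison of CyrKO with WT asks which miRNAs depend on Cyrano. None of the 7 passed the threshold in either tissue, while both miR-7 guide strands, which act as the reference, rose steeply. In cerebellum miR-7a-5p stood at 496 ± 52.9 CPM in WT. It reached 20026 ± 838 CPM in CyrKO, a log2 change of 5.34 ± 0.11 (SE), and miR-7b-5p rose by 5.56 ± 0.13. In hippocampus the rises were 2.53 ± 0.10 and 2.75 ± 0.09. All changes are from edgeR's quasi-likelihood test with Benjamini-Hochberg adjustment over all miRNAs tested.

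In cerebellum 0 of 7 were called, against 0.898% of the 668 miRNAs tested, with 0 of 7 at an unadjusted p under 0.05 and 0 of 7 by DESeq2 or in the authors' deposited table. Their log2 changes ran from -0.07 for miR-503-5p to 0.21 for miR-335-3p, with a median of 0.12 against -0.01 for all miRNAs tested. miR-335-3p was the only member whose 2 groups did not overlap, where 8.08% of all tested did not; its change was 0.21 (95% interval -0.05 to 0.46, adjusted p = 0.999 in edgeR). For miR-322-5p, the most variable, the change of 0.16 had an unadjusted 95% interval of -0.77 to 1.101, which takes in a difference of up to 2.14-fold. For the other 6 the intervals ended at or below 0.46 on the log2 scale, far under the change of miR-7.

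In hippocampus 0 of 7 were called, beside 0.57% of the 702 tested, again with 0 at an unadjusted p under 0.05, by DESeq2 and in the authors' deposited table. No member's groups were apart, where 9.12% of all miRNAs tested were. The changes ran from -0.12 for miR-672-5p (interval -0.37 to 0.12) to 0.26 for miR-322-5p (-0.60 to 1.12), with a median of 0.07 over the members and -0.00 over all tested. For miR-503-5p the change was 0.11 (-0.18 to 0.40) and for miR-335-3p 0.07 (-0.17 to 0.30). Whether the CyrKO effect differed by tissue was tested as an interaction in 12 libraries. The difference was called for 0 of 7 members by edgeR, 0 by DESeq2 and 0 at an unadjusted p under 0.05, where 0.402% of all tested were called. It ran from -0.19 for miR-335-5p to 0.18 for miR-503-5p.

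**Figure D2:**
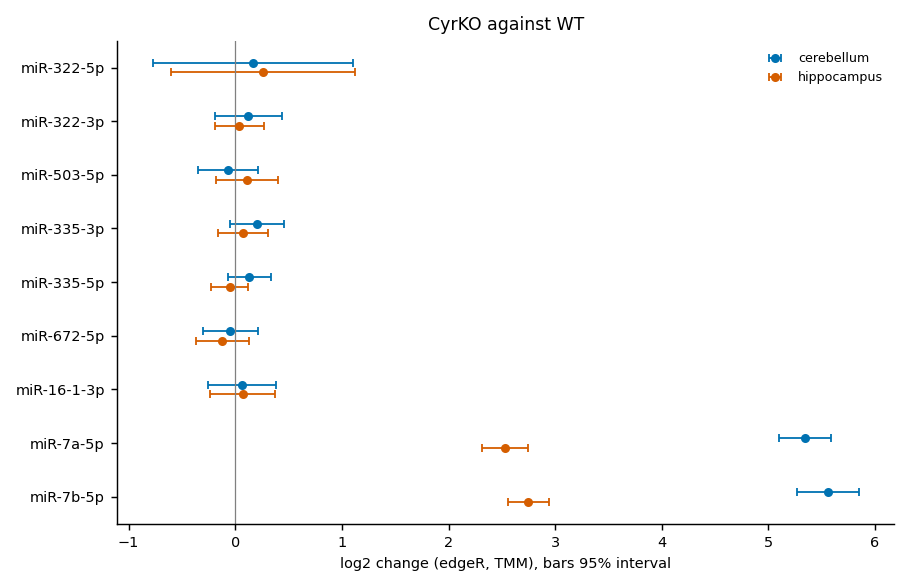
Log2 change of each member in CyrKO against WT, in cerebellum and hippocampus, with miR-7a-5p and miR-7b-5p below; points are edgeR estimates from 3 against 3 libraries and bars are 95% intervals. All 14 intervals of the members include 0, while the miR-7 strands lie at 2.53 to 5.56.

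Directed degradation takes away 1 strand of a hairpin, so the reads of that strand per read of its partner were compared within libraries, with 0.5 added to each count. In WT cerebellum there were 5.23 ± 0.686 reads of miR-322-5p per read of miR-322-3p and 7.20 ± 1.73 of miR-503-5p per miR-503-3p. miR-672-5p had 2.09 ± 0.0848 reads per read of miR-672-3p. miR-335-3p had 2.19 ± 0.0531 reads per 100 of miR-335-5p, which makes miR-335-5p by far the main strand. miR-16-5p, which also comes from a second hairpin, had 2430 ± 313 reads per read of miR-16-1-3p. In this ratio the member is the denominator.

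Without Cyrano the member ratios overlapped those of WT. In cerebellum the 5 member ratios differed from WT by -0.10 to 0.07 on the log2 scale, and in hippocampus by -0.34 to 0.15, with groups that overlapped in 5 of 5 in each tissue. Over all hairpins with both strands read at a mean of at least 10 counts, 11.6% of 198 in cerebellum and 15.6% of 218 in hippocampus had groups that did not overlap, and the median size of the difference was 0.11 and 0.13. The reference is less direct, since miR-7a-5p also comes from a second hairpin while miR-7a-1-3p comes from the first. Reads of miR-7a-5p per read of miR-7a-1-3p were 1.25, 1.47 and 1.35 in WT cerebellum and 46.8, 64.8 and 55.98 in CyrKO, a difference of 5.36. In hippocampus it went from 15.5 ± 1.93 to 109 ± 6.41, a difference of 2.82. An exact two-sided permutation test of 3 against 3 libraries cannot give a p below 0.1, and none of the 36 ratio tests went below 0.225 after adjustment, the reference included.

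**Figure D3:**
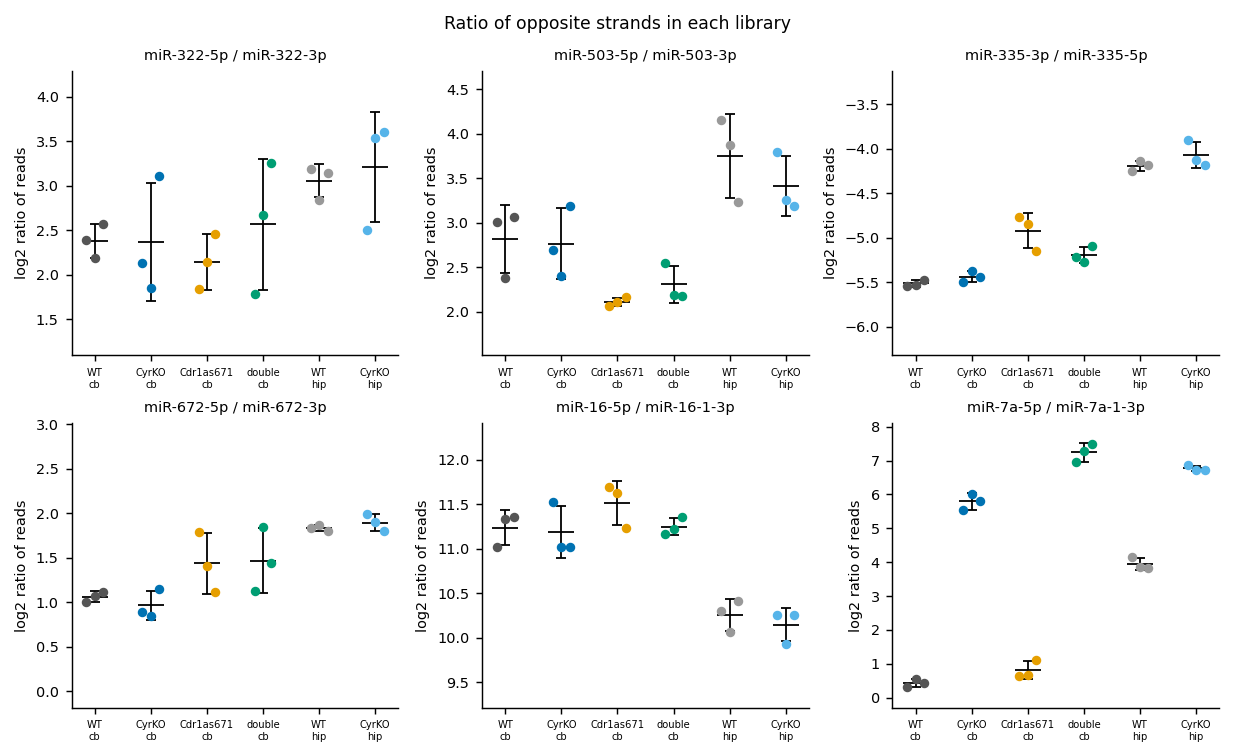
Log2 ratio of the reads of 2 opposite strands in each library (miR-7a-5p and miR-16-5p also come from a second hairpin), with the mean and SD of 3 libraries per group; the member panels span 3.2 log2 units and the miR-7a panel a wider range. WT and CyrKO overlap in both tissues for the 5 member ratios, and in WT all 5 differ between tissues without overlap.

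The longest Cyrano transcript in GENCODE M21, 8300 nt, was searched on its own strand for the 7 letters that pair with each seed. There was no match for miR-322-5p (TGCTGCT), miR-322-3p (TCATGTT), miR-503-5p (CGCTGCT) or miR-672-5p (CAACCTC). There was 1 match for miR-335-3p (ATGAAAA) and 1 for miR-16-1-3p (AATACTG), and there were 2 each for miR-335-5p (GCTCTTG) and miR-7 (GTCTTCC). Such matches are common: of 528 other long noncoding transcripts of 4150 to 16600 nt, 19.9% held that of miR-503-5p and 54.5% that of miR-322-5p, with 41.3% for miR-7. A match is a run of letters and was not tested for binding.

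These matches differed in how the 3′ part of the miRNA paired. From base 12 on, aligned without gaps and at the best of several loop lengths, 12 of 12 bases of miR-7a-5p and 13 of 13 of miR-7b-5p paired at the match that starts at base 2952 of the transcript. The best member match, of miR-335-5p at base 7860, paired 7 of 12; those of miR-16-1-3p and miR-335-3p paired 4 of 11 and 2 of 11. The miR-7 site and the miR-335-5p match are shown as DNA letters of the transcript, with the seed match in capitals.
miR-7 site: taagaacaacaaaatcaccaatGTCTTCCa
miR-335-5p match: gttcttttgtgcttggaacataGCTCTTGg

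The Cdr1as comparisons ask whether loss of the miR-671 site, alone or together with loss of Cyrano, changes other miRNAs. None of the 7 passed the threshold in these 4 comparisons, although miR-503-5p came closest in 3 of them and pointed the same way. Of the members, 0 of 7 were called for Cdr1as671 against WT (2.26% of 665 tested), 0 of 7 when the double mutant was set against WT (2.57% of 662), 0 of 7 for the double mutant against CyrKO (2.33% of 688) and 0 of 7 for the double mutant against Cdr1as671 (0.727% of 688). An unadjusted p under 0.05 in edgeR was reached by 3, 2, 2 and 1 members in that order. Over all miRNAs tested it was reached by 137 of 665, 127 of 662, 139 of 688 and 59 of 688. DESeq2 called 0 in each, with an adjusted p for 2 of 7 members in the last comparison and for all 7 in the others. The authors' deposited table gave 0 for both comparisons with WT.

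miR-503-5p was lower by 0.49 ± 0.15 on the log2 scale (SE) in Cdr1as671 than in WT, with an adjusted p of 0.110 in edgeR, and by 0.47 ± 0.12 in the double mutant than in WT, with an adjusted p of 0.0788. These comparisons share the WT libraries. Against CyrKO the double mutant was lower by 0.43 ± 0.13, with an adjusted p of 0.0977, and against Cdr1as671 its difference was 0.01 ± 0.13. Groups did not overlap in the first 3 of these, as for 25%, 26.6% and 29.5% of all miRNAs tested. The groups with the Cdr1as deletion held 74 to 102 reads of miR-503-5p in each library. The opposite strand miR-503-3p, at 15 to 33 reads in each cerebellar library, had a change of 0.15 ± 0.29 in Cdr1as671 against WT, with an adjusted p of 0.815 in edgeR. The ratio of the strands was 8.03, 5.22 and 8.35 in WT and 4.19, 4.302 and 4.47 in Cdr1as671, without overlap. In the double mutant it was 5.86, 4.57 and 4.52, which overlapped WT. Mesenchymal miRNAs, of which 4 of 5 were found, summed to 88.5 to 109 CPM in WT cerebellum, 99.7 to 104 in CyrKO, 85.9 to 93.0 in Cdr1as671 and 50.9 to 80.3 in the double mutant. By edgeR 0 of the 4 were called in Cdr1as671 and 0 in the double mutant against WT (2 in the double mutant by DESeq2), and 1 fell in the double mutant against CyrKO. Against WT the 4 ran from -0.52 to 0.53 on the log2 scale in Cdr1as671, with 2 of 4 above 0. In the double mutant they ran from -0.64 to -0.01, with 0 of 4 above 0. After group means were subtracted, the miRNAs most like miR-503-5p over the 18 libraries were miR-152-3p at 0.79, miR-214-3p at 0.75 and miR-10b-5p at 0.70. Of these only miR-214-3p is on the mesenchymal list. The part of mesenchymal cells in the result was not tested.

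For miR-335-3p the 3 WT libraries lay below those of each mutant group, but with small differences from WT of 0.21 ± 0.11 in Cdr1as671 and 0.33 ± 0.10 in the double mutant, with adjusted p of 0.317 and 0.136 in edgeR. miR-335-5p did not overlap WT in Cdr1as671, at 756, 797 and 981 CPM against 1015, 1178 and 1008, and its change was -0.37 ± 0.13 with an adjusted p of 0.140. Library 3 of Cdr1as671, the one with erythroid miRNAs at the WT level, was closest to WT. Without it miR-335-5p differed from WT by -0.52 (adjusted p = 0.00199 in edgeR), and the double mutant exceeded Cdr1as671 by 0.57 (adjusted p = 0.00155 in edgeR). Leaving out the library closest to WT was bound to widen the difference from WT. Over 14 alternatives that difference ran from -0.52 to -0.28, with 1 past the threshold. Over 18 alternatives the excess of the double mutant ran from 0.27 to 0.57, with 1 past the threshold. Without the same library miR-503-5p differed from WT by -0.53 (adjusted p = 0.0481 in edgeR), and 2 of 14 alternatives were past the threshold. Leaving this library out raised the calls over all miRNAs as well. Against WT 40 rose and 72 fell of 681 tested, beside 5 and 10 of 665 with it. For the double mutant against Cdr1as671 53 rose and 6 fell of 706, beside 5 and 0 of 688. Like the erythroid miRNAs, the immune ones were lower in Cdr1as671 libraries 1 and 2, at 329 and 354 CPM, than in library 3, at 800. The part of blood RNA in these differences was not tested. miR-322-5p, at -0.48 ± 0.17 in Cdr1as671 with an adjusted p of 0.158, was at -0.64 without WT library 2 (adjusted p = 0.0414 in edgeR). That was the largest fall of 14 alternatives, which reached up to -0.29, with 2 past the threshold. miR-322-3p was below CyrKO in the double mutant by 0.35 ± 0.13 without overlap (adjusted p = 0.165 in edgeR).

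Groups without overlap were common in these comparisons. They were seen for 3 of 7 members in Cdr1as671 against WT, where 25% of all tested showed it, for 3 of 7 in the double mutant against WT (26.6%), for 2 of 7 in the double mutant against CyrKO (29.5%) and for 0 of 7 in the double mutant against Cdr1as671 (17.2%). For the strand ratios the counts were 2 of 5 in Cdr1as671 against WT, beside 30.4% of 194 hairpins, 2 of 5 in the double mutant against WT (27% of 196) and 1 of 5 in the double mutant against Cdr1as671 (9.04% of 188). The ratio of miR-335-3p to miR-335-5p went from 2.15, 2.17 and 2.25 per 100 in WT to 3.67, 3.46 and 2.82 per 100 in Cdr1as671 and 2.69, 2.58 and 2.92 per 100 in the double mutant. For miR-672 the double mutant lay above WT, with 2.18, 3.60 and 2.71 reads of miR-672-5p per miR-672-3p against 2.003, 2.10 and 2.17.

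The interaction of the 2 mutations, which asks whether the effect of Cyrano loss differs once the Cdr1as site is gone, was called for 0 of 7 members by edgeR, 0 by DESeq2 and 0 at an unadjusted p under 0.05, beside 0.145% of all tested. It ran from -0.12 for miR-322-3p to 0.36 for miR-322-5p. The double mutant and Cdr1as671 differ in genotype only at Cyrano. In their contrast the members' changes ran from 0.01 for miR-672-5p to 0.54 for miR-322-5p, and miR-7a-5p rose by 6.08. All 7 were above 0, beside 328 of the 688 miRNAs tested, but miR-322-3p, miR-503-5p and miR-672-5p went as low as -0.10 under other settings. The libraries also differed in erythroid miRNAs, of which 3 of 3 tested were above 0 in this contrast, with a median of 0.96 and 0 called. The part of blood RNA in the members' changes was not tested.

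**Figure D4:**
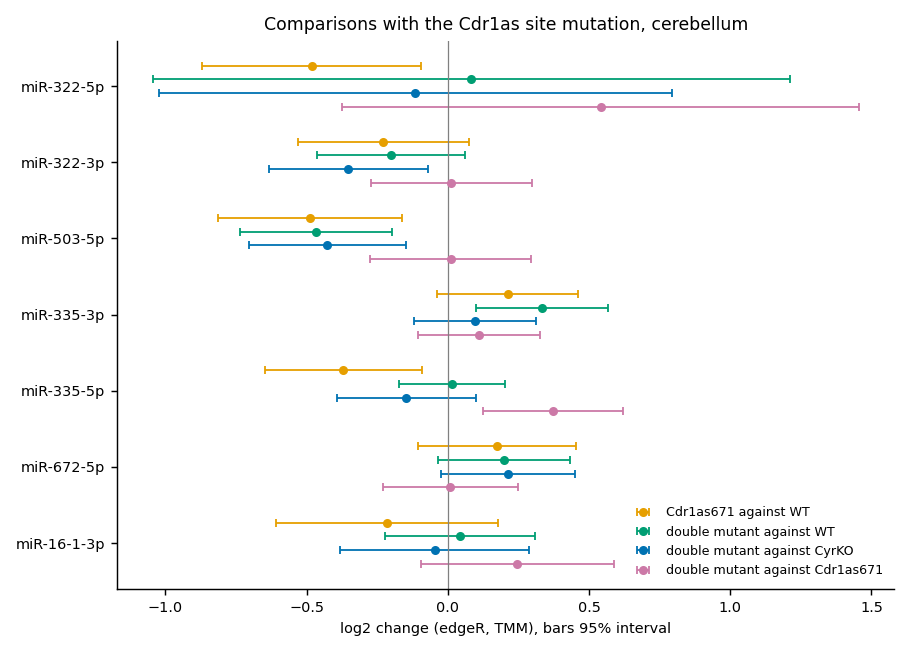
Log2 change of each member in the 4 cerebellar comparisons that involve the Cdr1as deletion, with edgeR estimates as points and 95% intervals as bars. miR-503-5p lies at -0.49 to -0.43 in the 3 comparisons of a group with the deletion against a group without it and at 0.01 between the 2 groups that carry it; no member passed the adjusted threshold.

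Between WT hippocampus and WT cerebellum 7 of 7 members were called, beside 70% of the 746 miRNAs tested: 6 were higher in hippocampus and miR-16-1-3p lower. miR-672-5p rose by 1.68 ± 0.12 on the log2 scale (3.20-fold, interval 2.70 to 3.81), miR-335-3p by 1.603 ± 0.12 (3.04-fold), miR-503-5p by 1.16 ± 0.13 and miR-322-5p by 1.097 ± 0.35. miR-322-3p and miR-335-5p rose less, by 0.43 ± 0.13 and 0.27 ± 0.10. CPM did not overlap between the tissues for 6 of 7 members, where 72% of all tested did not. In the same fit the 3 erythroid miRNAs fell in hippocampus, with a median of -3.19, and summed to 2583 to 3058 CPM in WT hippocampus and 6326 to 32949 CPM in WT cerebellum. Muscle miRNAs summed to 154.6 to 207 and 956 to 1067 CPM, and 1 of 2 fell. Of the choroid plexus and ciliated-cell miRNAs 3 of 7 rose, of the immune ones 1 rose and 2 fell of 5, of the mesenchymal ones 2 of 4 fell, and of the vessel ones 0 of 6 were called by edgeR or DESeq2 (1 at an unadjusted p under 0.05). The part of these cells in the members' differences was not tested.

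The size of these differences rests on how libraries were scaled. TMM put the median over all miRNAs tested at 0.03, whereas scaling by library totals put it at 0.58, a shift of 0.55; of the calls 53.6% were higher in hippocampus under TMM and 76.1% under totals. With totals miR-335-3p was higher by 2.15, miR-672-5p by 2.23, miR-503-5p by 1.71 and miR-322-5p by 1.64, and miR-16-1-3p, at -0.59 under TMM (adjusted p = 0.00183 in edgeR), was at -0.03 (adjusted p = 0.841). For miR-322-5p the adjusted p of 0.0213 in edgeR rose above 0.05 without WT cerebellum library 1 or 2 or WT hippocampus library 1 or 3, at 0.0537 to 0.0671. It was 0.0503 without the filter on low counts, and 13 of 18 alternatives passed the threshold. For miR-335-5p the adjusted p was 0.0653 in edgeR without WT cerebellum library 3.

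Ratios of strands need no such scaling. In WT all 5 member ratios were apart between tissues, beside 44.4% of all such hairpins, with a median size of 0.94 on the log2 scale against 0.32 over those hairpins. miR-335-3p went from 2.19 ± 0.0531 reads per 100 of miR-335-5p in cerebellum to 5.48 ± 0.212 in hippocampus, a log2 difference of 1.32. The ratio was higher in hippocampus by 0.94 for miR-503, from 7.20 ± 1.73 to 13.9 ± 4.25 reads of miR-503-5p per read of miR-503-3p, by 0.77 for miR-672, from 2.09 ± 0.0848 to 3.57 ± 0.0808, and by 0.68 for miR-322, from 5.23 ± 0.686 to 8.39 ± 1.06. The miR-7a ratio also differed in that direction in WT, by 3.51. For miR-16 the member is the denominator, and miR-16-5p per miR-16-1-3p differed by -0.98 on the log2 scale. Reads of miR-16-1-3p per read of miR-16-5p were thus also higher in hippocampus. miR-16-5p itself was at 24448 ± 2196 CPM in cerebellum and 12053 ± 644 CPM in hippocampus. Each of these 6 ratio tests gave p = 0.1 by exact permutation, the smallest possible, and 0.225 after adjustment over 36 tests.

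Of the members 6 of 7 were called between CyrKO hippocampus and CyrKO cerebellum, beside 72.1% of all tested, and CPM did not overlap for 6 of 7, beside 77.3%. miR-672-5p rose by 1.604 ± 0.12, miR-335-3p by 1.46 ± 0.12, miR-503-5p by 1.34 ± 0.13, miR-322-5p by 1.19 ± 0.35 and miR-322-3p by 0.34 ± 0.13, while miR-16-1-3p fell by 0.58 on the log2 scale, a call lost under library totals (-0.00, adjusted p = 0.989 in edgeR). miR-335-5p, at 0.09 ± 0.10, was not called under TMM and was higher by 0.66 under library totals, with an adjusted p of 5.87e-06. In CyrKO 53.9% of all calls were higher in hippocampus under TMM and 76.9% under totals. miR-7a-5p, by contrast, differed by 2.57 between tissues in WT and by -0.25 in CyrKO.

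**Figure D5:**
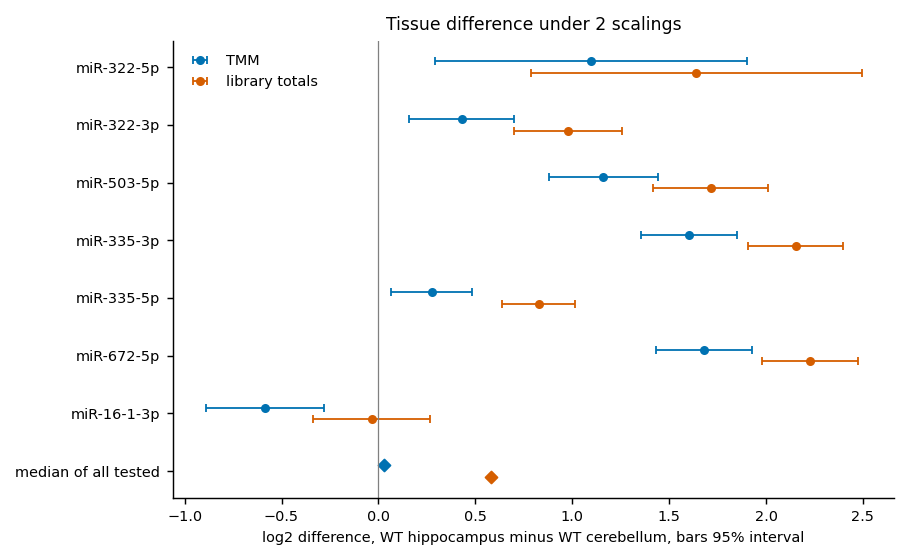
Log2 difference between WT hippocampus and WT cerebellum for each member, scaled by TMM or by library totals, with 95% intervals, and the median of all 746 miRNAs tested as diamonds. The choice of scaling moves every value by about the 0.55 by which it moves the median, which takes miR-16-1-3p from -0.59 to -0.03.

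The other strands of the X-linked cluster that follows Mir322 and Mir503, from Mir351, Mir542 and the Mir450 genes, were measured alongside. Of 9 such strands 6 were tested in cerebellum and 7 in hippocampus, and 0 were called for CyrKO against WT in either, with log2 changes of -0.28 to 0.09 and of -0.01 to 0.38 by edgeR, with 0 at an unadjusted p under 0.05 and 0 by DESeq2. Between the WT tissues 5 of 7 rose in hippocampus and none fell (3 of 7 were called by DESeq2), with a median of 0.63, such as miR-542-3p by 0.72 ± 0.13 and miR-351-5p by 0.63 ± 0.10; all 7 were above 0. Over all 746 miRNAs tested 280 rose and 242 fell, and 380 were above 0. With the median of all miRNAs tested at 0.03 under TMM and 0.58 under library totals, these differences are subject to the same scaling.

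Of 5 other miRNAs reported as open to directed degradation, miR-29b-3p, miR-221-3p, miR-222-3p and miR-154-3p were tested and miR-27a-3p was not analysed here. For CyrKO against WT 0 of 4 were called by edgeR in either tissue, with 0 at an unadjusted p under 0.05 and 0 by DESeq2, at -0.11 to 0.07 in cerebellum and -0.11 to -0.02 in hippocampus. Between the WT tissues 4 of 4 rose in hippocampus under TMM, beside 280 of all 746 tested (402 under library totals). miR-222-3p, known with miR-221-3p as a repressor of the cell-cycle inhibitor p27, rose by 2.37 ± 0.08, miR-221-3p by 2.26 ± 0.11, miR-29b-3p, a brake on proapoptotic mRNAs in neurons, by 1.47 ± 0.08 and miR-154-3p by 0.66 ± 0.10.

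Across the 18 libraries 6 of the members followed each other, with the tissue difference in common, and miR-16-1-3p correlated with them at 0.06 to 0.37. The correlation of log2(CPM + 1) was 0.99 between miR-335-3p and miR-672-5p, 0.97 between miR-322-3p and miR-503-5p and 0.88 between the miR-322 strands; these are descriptions over libraries that share tissue, genotype and depth. After the mean of each group was subtracted the miR-322 strands stood at 0.01 and the miR-335 strands at 0.57. Among 441 miRNAs with a mean of at least 10 CPM, those most like miR-672-5p over the 18 libraries were miR-212-5p, miR-222-3p and miR-412-5p, and those most like miR-335-3p were miR-323-5p, miR-3059-5p and miR-212-5p, all at 0.99 or above. For miR-503-5p they were miR-31-3p, miR-148a-3p and miR-296-3p at 0.99, for miR-322-3p miR-3072-3p, miR-346-5p and miR-1839-3p at 0.98 to 0.99, and for miR-335-5p miR-369-3p, miR-544-5p and miR-154-3p at 0.96 to 0.98. miR-322-5p was most like miR-98-5p, miR-3102-5p.2-5p and miR-212-3p, at 0.91 to 0.92. miR-16-1-3p, with no tissue difference in CPM, was most like miR-32-5p, miR-142-3p and miR-33-5p at 0.73 to 0.76, and after group means were subtracted like miR-30d-3p at 0.91.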

How the data were processed

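Small RNAs of mouse brain were sequenced from 18 libraries. Per the submitters' processing notes, cutadapt and DESeq2 1.10 were used; no source used here gives the read mapping, miRNA annotation or build. As deposited, the tables hold raw counts per mature miRNA in 4 files, with the WT cerebellum counts the same in 3 of them. Columns marked as normalized per the file headers hold counts over a size factor of the authors (a signal) and were not used. The deposited log2 fold changes, with their standard errors, the test statistic (a score) and the raw and adjusted p-values are the authors' own, per the file headers, and served as an alternative.

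Counts were fitted in R 4.3.3 with edgeR 4.0.16: filterByExpr (minimum count 10, total 15), TMM, robust quasi-likelihood F-test, and Benjamini-Hochberg adjustment over all miRNAs tested, with a threshold of 0.05. Comparisons with WT used the 6 libraries concerned. The other cerebellar contrasts used the 12 cerebellum libraries, and the tissue contrasts those 12 libraries that are WT or CyrKO. CPM were taken over each library's miRNA reads. Strand ratios (0.5 added) were compared by exact permutation in SciPy 1.17.1. The procedure was tested on simulated data. Alternatives were DESeq2 1.42.0, other scalings and count filters, the replicate block and leaving out each library.

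The members, lists and tests were chosen with earlier results of these data known. The text names all members, the miR-7 guides, the other strands of the members' hairpins, the X-linked cluster, other miRNAs reported as degraded and the 3 most alike. Of the lists, miR-27a-3p, miR-450a-1-3p, miR-450b-3p, miR-199a-3p, miR-486a-5p and miR-133b-3p were not analysed here. Vessel, mesenchymal, immune, oligodendrocyte and muscle lists were also summed: vessel miRNAs at 7764 to 14796 CPM, mesenchymal at 50.9 to 143, immune at 329 to 1142, oligodendrocyte at 6589 to 15623 and muscle at 154 to 1729.

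Replicate numbers are shared across groups, and the labels do not say what equal numbers mark. The deviations of same-numbered libraries from their group means correlated at 0.53, 0.37 and 0.13 between WT and CyrKO cerebellum. Between WT and double mutant cerebellum they correlated at 0.66, 0.46 and 0.51, and elsewhere at least 1 correlation was 0.1 or less. Libraries with different numbers were not compared, so these values cannot show a pairing. The main fits and the permutation tests took libraries as unpaired, and the replicate block was run as an alternative.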

Additional observations from a re-analysis of the deposited data

How the results depend on the processing

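No member was called for CyrKO against WT in either tissue, in the interaction of both mutations or in the tissue difference of the CyrKO effect under any alternative run: DESeq2, RLE size factors, library totals, no filter on low counts, a mean of at least 10 CPM, the replicate block, each library left out and, where they apply, 12 libraries in 1 fit and the authors' deposited values. With the replicate block the number of members called stayed at 0 in each genotype comparison and at 7 and 6 in the WT and CyrKO tissue comparisons. The block did change calls over all miRNAs. With it 7 rose and 35 fell for Cdr1as671 against WT, beside 5 and 10 in the main fit. For the double mutant against WT 16 rose and 19 fell, beside 13 and 4. For Cdr1as671 against WT the number of members called was 1 without the filter on low counts (miR-322-5p, adjusted p = 0.0204 in edgeR) and 1 with 12 libraries in 1 fit (miR-503-5p, 0.0374), and 0 to 2 with a library left out: miR-322-5p without WT library 2, and miR-335-5p and miR-503-5p without Cdr1as671 library 3. Over all miRNAs 5 rose and 10 fell of 665 in the main fit. Under these settings, in that order, 17 rose and 36 fell of 1322, 13 and 29 of 688, 3 and 18 of 682 and 40 and 72 of 681. For the double mutant against WT 1 member was called with library totals (miR-503-5p, 0.0382), where 10 rose and 21 fell of all 662 tested, beside 13 and 4 in the main fit. With any library left out 0 members were called. For the double mutant against Cdr1as671 0 to 1 members were called with a library left out, and for the tissues 6 to 7 in WT and 5 to 6 in CyrKO. In CyrKO the tissue call of miR-322-3p was lost without the filter, with at least 10 CPM and without CyrKO cerebellum library 2 or 3 or CyrKO hippocampus library 1, and that of miR-322-5p without CyrKO cerebellum library 1 or CyrKO hippocampus library 3. The cause was not tested. Of 1143 member values under other settings, 55 had the opposite sign, none of them past the threshold in either fit. With a pseudocount of 1 the strand ratios without overlap remained 10 of 30. With at least 10 CPM miR-16-1-3p was not tested in the comparisons that include Cdr1as671 or double mutant libraries. TMM raised cerebellar levels to 1.11 to 1.21 times the CPM and lowered hippocampal ones to 0.749 to 0.781 times. Depth limits the strands read least, such as miR-351-3p at 7 to 13 and miR-503-3p at 15 to 33 reads in each cerebellar library.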
